A study of Mus musculus with 8 samples.

Results

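The 6 genes of secreted acute phase proteins examined here in skin adipocyte precursors were Saa1, Saa2 and Saa3, which encode serum amyloid A proteins, Lcn2, which encodes lipocalin 2, Hp, which encodes haptoglobin, and Orm1, which encodes orosomucoid. They were chosen by symbol, with their levels in these data already known, and each matched 1 isoform, so that they make up 6 of the 34535 isoforms and 6 of the 24358 gene symbols in the table. Adipocyte precursors are mesenchymal cells that can become fat cells, and here they were sorted by fluorescence from the dermis of male C57/Bl6 mice aged 7 weeks. The nonwounded group held 6 samples of dorsal skin and the wound bed group held 2 samples taken at day 5. The labels give neither the sort markers nor the kind of wound, and they do not say whether samples came from separate animals, so the p-values may measure technical spread only. Each isoform has a single FPKM per group (fragments scaled to transcript length and to depth), pooled by the authors over the samples of the group, and a single p-value. With 1 value per group no SD can be given, sequencing depth per sample is unknown, and how many samples share a direction could not be counted.

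Acute phase proteins are plasma proteins whose production changes when tissue is injured or infected. Interleukin 6 signals to the liver through STAT3, and interleukin 1 and tumour necrosis factor through NF-kappaB, with C/EBP factors acting on many of the target genes. Serum amyloid A1 and A2 come mainly from the liver and travel on high-density lipoprotein, whereas Saa3 in mice is made largely outside the liver, among others by fat cells, macrophages and fibroblasts. Lipocalin 2 binds bacterial iron-carrying siderophores, haptoglobin binds free hemoglobin, and orosomucoid is a glycoprotein that carries small lipophilic molecules. Fat tissue is a known source of haptoglobin, lipocalin 2 and Saa3.

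In the wound bed the serum amyloid A gene Saa3 was among the most abundant transcripts of the sorted cells. Its group FPKM was 3295 in the wound bed against 0.814 in nonwounded skin, a 4049-fold difference or 11.98 on the log2 scale. The Lcn2 level was 35.3 in the wound bed against 1.15 in nonwounded skin, a 30.6-fold difference. The Hp level was 145 and 28.9, a 5.00-fold difference. All 3 of these genes passed the threshold, a Benjamini-Hochberg adjusted p under 0.05 computed over 17775 tested isoforms from the Cuffdiff p-values in the authors' deposited table. Orm1 stood the other way, at 0.328 in the wound bed against 3.02 in nonwounded skin, without passing.

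Of the 6 genes, 3 were called higher and 0 lower, while 5.66% of all tested isoforms were called higher and 7.25% lower. Because the genes were chosen on this same contrast, the count is a description and nothing is read from it. At an unadjusted p under 0.05 the lower direction held 1 gene, Orm1, with a p of 0.01765 in the authors' deposited table. The adjusted Cuffdiff p was 0.000882 for Hp, 0.0115 for Lcn2, 0.0473 for Saa3 and 0.0998 for Orm1. The Saa3 call thus lay close to the threshold, beside the largest fold change of the 6.

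Other call rules gave other backgrounds. At an adjusted p under 0.01, which 8.24% of tested isoforms passed (3.61% higher and 4.63% lower), Hp was called and Saa3 and Lcn2 were not. At an adjusted p under 0.1, passed by 7.52% higher and 10.2% lower, Orm1 was called lower beside the 3 higher genes. Hp, Lcn2 and Saa3 were called under the remaining rules. A required log2 fold change of at least 1 left 4.74% higher and 6.11% lower. An FPKM minimum of 1 in the higher group gave 6.21% and 7.60%, a minimum of 5 gave 21.6% in either direction, and leaving out isoforms listed at 0 gave 5.89% and 5.48%. These rules use the contrast on which the genes were chosen, and nothing is read from the counts.

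**Figure D1:**
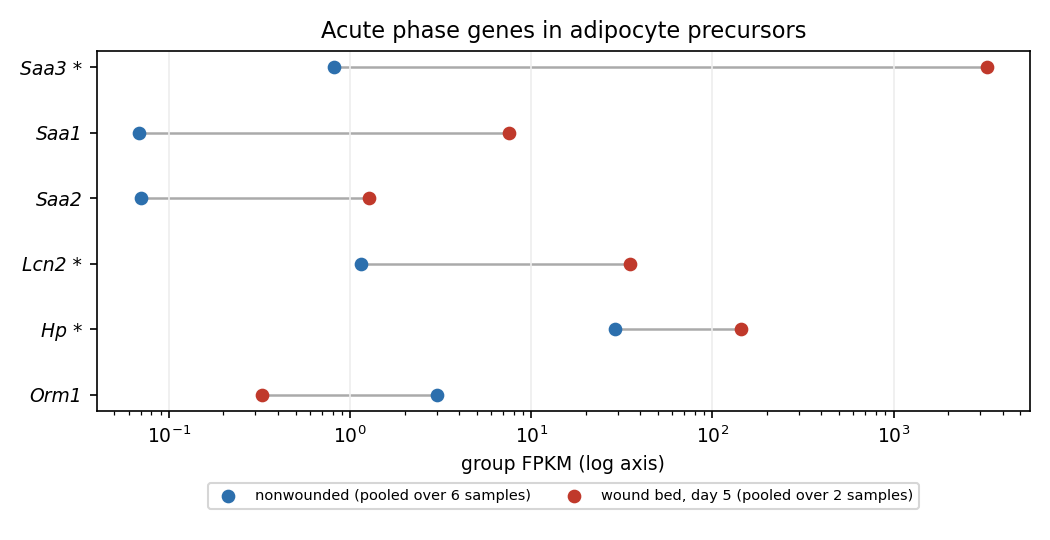
Group FPKM (horizontal log axis) of the 6 acute phase genes (rows) in nonwounded skin (blue) and the day 5 wound bed (red), 1 pooled value per group joined by a line, with an asterisk where the gene was called. Saa3 spans 0.814 to 3295, and Orm1 is the row in which the blue point (3.02) lies to the right of the red one (0.328).

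The order of the genes by level differed between the groups. FPKM is scaled to transcript length, so levels can be set side by side between genes, but without values per sample it is not known which neighbours in the order differ beyond their spread. In nonwounded skin Hp came first and Orm1 second, followed by Lcn2 and Saa3, with Saa2 at 0.0698 and Saa1 at 0.0686 last. Hp alone held 84.9% of the summed FPKM of the 6 genes there, which was 34.0. In the wound bed the sum was 3484, and Saa3 held 94.6% of it, Hp 4.15% and Lcn2 1.01%. The ratio of Saa3 to Hp was 22.8 in the wound bed against 0.0282 in nonwounded skin.

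Saa3 ranked 4 of the 17775 tested isoforms by wound bed FPKM and 15937 by nonwounded FPKM. The protein-coding genes above it in the wound bed were Eef1a1, a translation elongation factor gene, at 4327 and Tpt1, the gene of a translationally controlled protein, at 4192, neither of them called. Hp ranked 515 in the wound bed against 2208 in nonwounded skin, and Lcn2 1799 and 14588. Hp was thus a well-expressed gene in both groups. Orm1 ranked 15721 in the wound bed against 10452 in nonwounded skin.

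The serum amyloid A genes lie together on chromosome 7. The table places Saa3 from 46711998 to 46715676, Saa1 from 46740499 to 46742980 and Saa2 from 46751833 to 46754314, with Saa4 between Saa3 and Saa1. These positions match the GRCm38 assembly within 2 bases at the nearer end of each gene, as do those of Lcn2 on chromosome 2 (32384637 to 32387739), Hp on chromosome 8 (109575128 to 109579172) and Orm1 on chromosome 4 (63344566 to 63348162), although the submitters' processing notes name mm9. At the other end, the GRCm38 record differed by 3939 bases for Saa3 and by 201 for Saa1. From Saa3 to Saa2 the cluster spans 42.3 kb.

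Within the cluster the 4 genes differed widely in level. The liver-type gene Saa1 stood at 7.53 in the wound bed against 0.0686 in nonwounded skin (6.78 on the log2 scale), with an adjusted Cuffdiff p of 0.383. The other liver-type gene, Saa2, stood at 1.27 and 0.0698 (4.18), with an adjusted Cuffdiff p of 0.488. Neither was called. Saa4, which encodes a constitutively made serum amyloid A, was not tested by the authors and stood at 0.0318 and 0.0452. Saa3 made up 99.7% of the summed FPKM of the 4 genes in the wound bed but 81.6% in nonwounded skin, where the sum was 0.997. The ratio of Saa3 to Saa1 was 438 in the wound bed against 11.9 in nonwounded skin.

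Large fold changes often had no call in this table. The counts that follow cover the 17022 tested isoforms not listed at 0 in either group, since a fold against 0 has no bound. Of the 106 with a log2 fold change at least that of Saa1, 11 were called, and of the 325 with at least that of Saa2, 73 were called. A log2 fold change at least that of Saa3 was found for 14 of these isoforms, itself included, and Saa3 was the 1 among the 14 that was called. For Lcn2 the same count was 38 of 219 and for Hp 287 of 968. Fold changes with a level near 0 in 1 group depend on the treatment of small values. With 1 added to each FPKM the log2 difference of Saa1 was 3.0, that of Saa2 1.08, that of Saa3 10.83 and that of Orm1 -1.60.

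**Figure D2:**
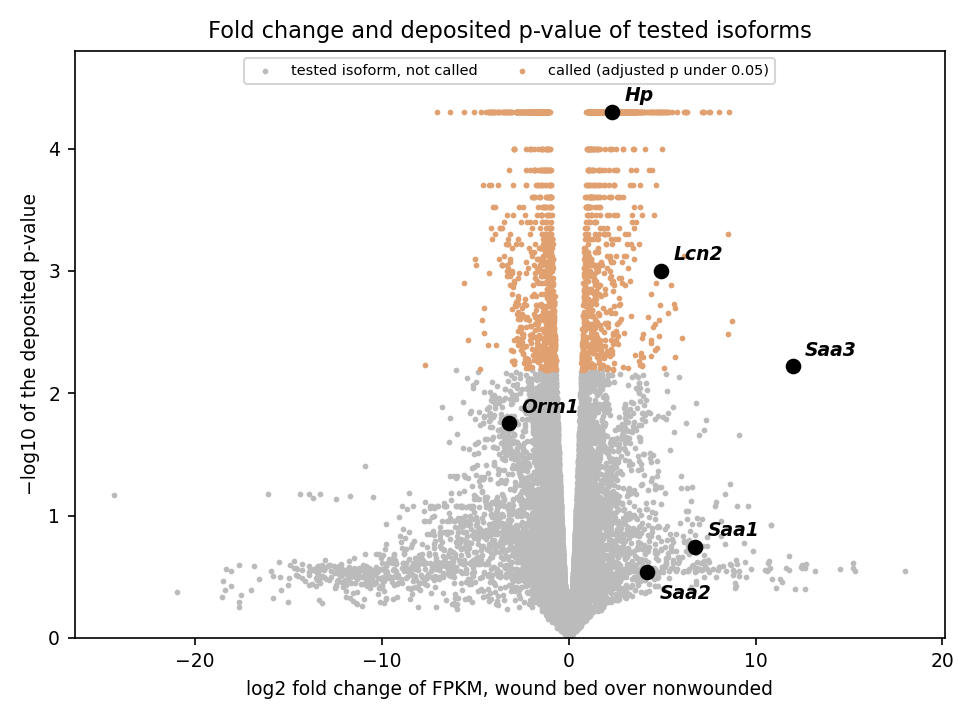
Log2 fold change of FPKM (horizontal axis) against -log10 of the p-value in the authors' deposited table (vertical axis) for the 17022 isoforms that were tested and not listed at 0 in either group, each drawn as a point, orange if called and grey if not, with the 6 acute phase genes in black. Saa3 stands at 11.98 to the right of all other called isoforms, Hp lies on the top row at the smallest p (5e-05), and Saa1 and Saa2 lie low in the plot.

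Saa1 and Saa2 are near copies of each other, which limits how their reads can be told apart. Their transcripts in GENCODE M21 were 93.9% identical in a global alignment, whereas Saa1 and Saa3 were 64.3% identical. Of the 50-base windows of the Saa1 transcript, 14.8% also occurred in a transcript of another gene, Saa2 or Saa3. The share was 13.3% for Saa2 and 1.78% for Saa3, where 9 of 506 windows were shared with Saa1. For Lcn2 and Hp it was 0 of 866 and 0 of 1296 windows. Orm1 shared 20.4% of its windows with its neighbours Orm2 and Orm3, so the values of Saa1, Saa2 and Orm1 are the uncertain ones. In the wound bed Saa3 stood at 3295 beside 7.53 for Saa1, with which it shares those 9 windows. How reads from shared windows were assigned is not given in the sources used here, and its part in the Saa1, Saa2 and Orm1 values was not tested.

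The promoter sequences show how alike the Saa genes are and where they part. For Saa1, Saa2, Saa3 and Lcn2 the 250 bases before the transcription start were taken from RefSeq (GRCm38.p6), and the start used there equals the outer end of the gene in the table for all 4. For Saa3 and Saa1 the GRCm38 gene record reaches further upstream, by 3939 and 201 bases, so their windows lie before the start given in the table. Hp and Orm1 had no matched entry. The windows are chr7:46742981-46743230 on the minus strand for Saa1, chr7:46751583-46751832 on the plus strand for Saa2, chr7:46715677-46715926 on the minus strand for Saa3 and chr2:32387740-32387989 on the minus strand for Lcn2. They are written 5′ to 3′, and capitals mark matches to a core of the C/EBP motif, TTGCNNAA, on either strand.
Saa1: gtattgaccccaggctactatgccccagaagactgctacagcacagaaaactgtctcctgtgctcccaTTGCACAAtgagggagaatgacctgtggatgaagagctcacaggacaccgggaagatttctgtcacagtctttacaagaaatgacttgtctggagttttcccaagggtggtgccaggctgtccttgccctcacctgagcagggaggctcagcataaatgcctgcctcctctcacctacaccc
Saa2: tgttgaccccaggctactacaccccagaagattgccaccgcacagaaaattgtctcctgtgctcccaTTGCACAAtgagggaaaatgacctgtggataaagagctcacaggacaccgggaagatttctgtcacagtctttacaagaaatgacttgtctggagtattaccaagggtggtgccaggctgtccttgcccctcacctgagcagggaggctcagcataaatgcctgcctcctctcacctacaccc
Saa3: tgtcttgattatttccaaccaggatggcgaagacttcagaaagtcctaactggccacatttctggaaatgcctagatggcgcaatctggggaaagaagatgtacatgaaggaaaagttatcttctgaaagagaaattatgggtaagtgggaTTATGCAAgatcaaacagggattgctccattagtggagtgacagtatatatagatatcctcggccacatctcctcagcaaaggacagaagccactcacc
Lcn2: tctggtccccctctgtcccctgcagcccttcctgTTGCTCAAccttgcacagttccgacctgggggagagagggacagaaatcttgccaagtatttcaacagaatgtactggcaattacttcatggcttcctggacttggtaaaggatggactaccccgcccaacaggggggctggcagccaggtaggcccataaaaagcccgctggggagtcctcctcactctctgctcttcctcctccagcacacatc

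The Saa1 and Saa2 windows were 94.8% identical, and those of Saa1 and Saa3 52.2%. Each of the 4 windows held 1 match to TTGCNNAA. In Saa1 and Saa2 the matched letters were the same, TTGCACAA, beginning 182 and 183 bases before the start. In Saa3 the match was TTATGCAA, read on the opposite strand of the motif, beginning 99 bases before the start, and in Lcn2 it was TTGCTCAA at 216 bases. Of 32851 RefSeq promoter windows of this length, 9.56% held such a match. None of the 4 windows held the STAT motif TTCNNNGAA (7.02% of all windows), the NF-kappaB consensus (7.25%) or TATAAA (12.4%), each searched on both strands. With no match to the other motifs in the 4 windows, no C/EBP match overlaps one. The motifs were written down with the sequences in view, a match is not evidence of binding, and its absence says only that these letters are not in this window.

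Genes close to the 6 were compared to see whether whole regions differed. Over all tested major isoforms 15.7% were called, and with few genes per region nothing is read from the counts of called neighbours. Within 100 kb of the Saa genes, 7 other genes are listed, of which 5 were tested and 1 was called. The called gene was Ldha, which encodes a lactate dehydrogenase subunit, at 338 in the wound bed against 111 in nonwounded skin. Saal1, the direct neighbour of Saa3, stood at 2.21 and 3.96 without a call. Beside Hp, 5 of 6 other genes were tested and none was called, and the adjacent genes Txnl4b and Dhodh had log2 differences of -1.39 and -0.58.

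Near Lcn2, 7 of 10 other genes were tested, and the adjacent genes 1110008P14Rik and Ptges2, a prostaglandin E synthase gene, had log2 differences of 0.67 and -0.25 without a call. Slc25a25, a mitochondrial carrier gene, was called higher at 19.9 against 1.95. Swi5, a gene of recombination repair, was called lower for its major isoform (-1.47), while the sum over its isoforms gave 0.10. Near Orm1 only 2 of 6 other genes were tested. Of these Col27a1, a fibrillar collagen gene, rose by 3.70 on the log2 scale, opposite to the direction of Orm1. The copies Orm3 and Orm2 were not tested and stood at 0.127 and 0 in the wound bed against 0.0652 and 0.0656 in nonwounded skin.

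**Figure D3:**
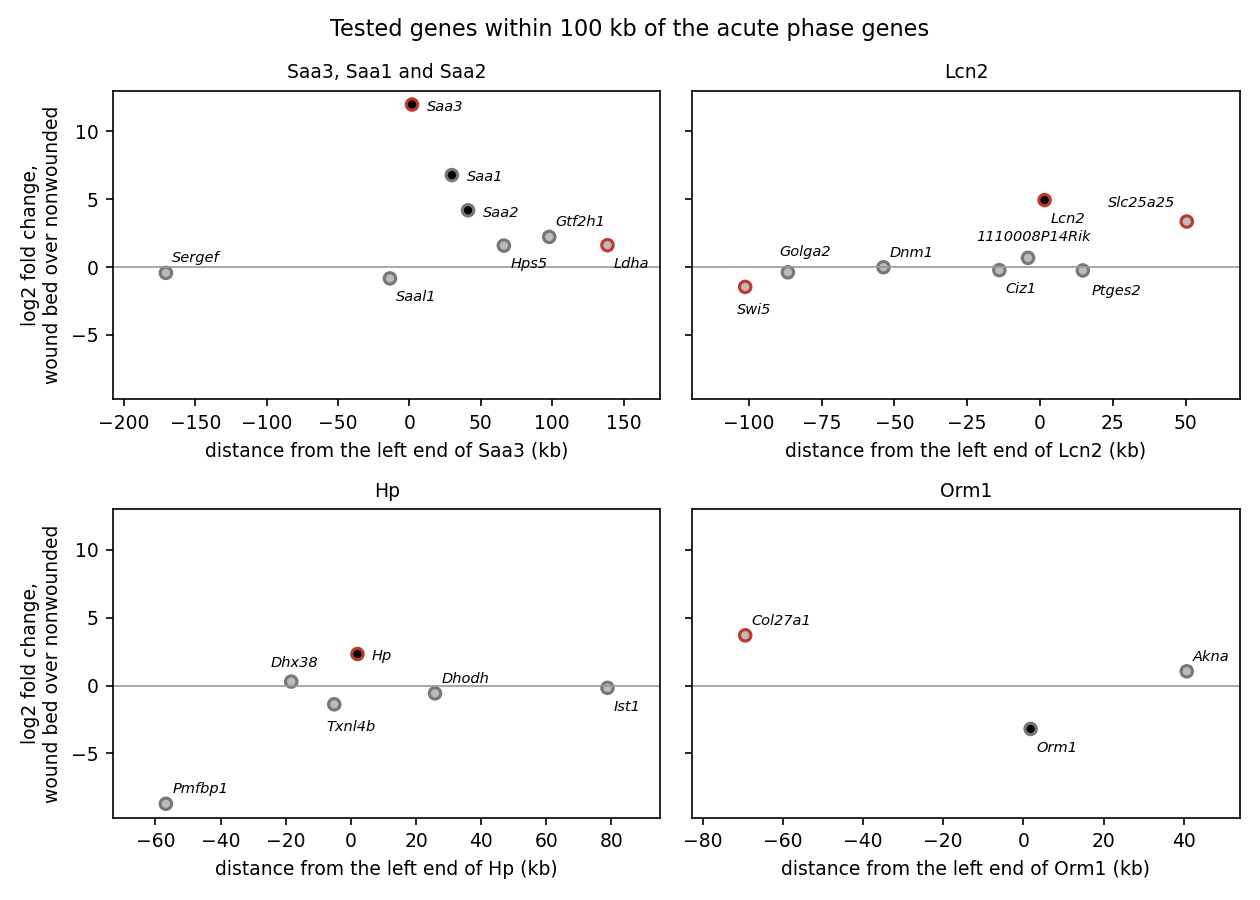
Log2 fold change (vertical axis) of tested genes against the distance in kb of the middle of each gene from the left end of Saa3, Lcn2, Hp or Orm1 (horizontal axes), for genes within 100 kb, with the acute phase genes in black, other genes in grey and a red rim where a gene was called. Saa3, Saa1 and Saa2 (11.98, 6.78 and 4.18) lie above every neighbour drawn, and the genes beside Hp lie at or below 0.29.

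The remaining acute phase genes fell into those that were expressed in these cells and those that were almost absent. Of a list of 28 further acute phase genes, written with earlier results of these data known, 15 were not tested by the authors and all 15 stood below an FPKM of 1 in both groups. Among these were the classical liver products Crp (C-reactive protein, 0.0139 and 0.512), Apcs (serum amyloid P, listed at 0 in both), the fibrinogen genes Fga and Fgb (listed at 0 in both) and Fgg, and Hamp, the gene of the iron hormone hepcidin (0.0489 and 0.256). The 13 tested genes had a median log2 fold change of 3.35, against -0.14 over all tested major isoforms. That median depends on which genes were tested. Il1rn, Serpina3m and A2m exceeded 1 in the wound bed only, whereas Crp and Hamp, lower in the wound bed, were not tested. Of these 13, 10 were called higher and 0 lower, while 15.7% of 13719 tested major isoforms (1 per gene) were called, 7.00% higher and 8.68% lower.

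Of the called genes, Ptx3, which encodes the long pentraxin that is a tissue-made relative of C-reactive protein, stood at 1088 in the wound bed against 5.70 in nonwounded skin. The metal-binding metallothionein genes Mt2 and Mt1 rose by 4.79 and 3.15 on the log2 scale, to 2416 and 1483. Steap4, a metalloreductase gene, rose by 3.75 to 128, and Serpina3n, an antichymotrypsin gene, by 3.35 to 394.

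The complement gene C3 was already abundant in nonwounded skin, at 335, and stood at 1051 in the wound bed. Lbp, the gene of the lipopolysaccharide-binding protein, was also expressed in both groups, at 263 and 94.9. Cp, which encodes the copper oxidase ceruloplasmin, rose by 1.36 for its major isoform, with a sum over isoforms of 0.86, and Serpina3g by 1.97. The other 3 tested genes had no call, namely Il1rn, which encodes the interleukin 1 receptor antagonist (6.44 and 0.0909), Serpina3m (2.85 and 0.357) and A2m (1.03 and 0.0988). Like Hp, C3 and Lbp thus combined a nonwounded level well above 1 with a difference of a few fold.

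**Figure D4:**
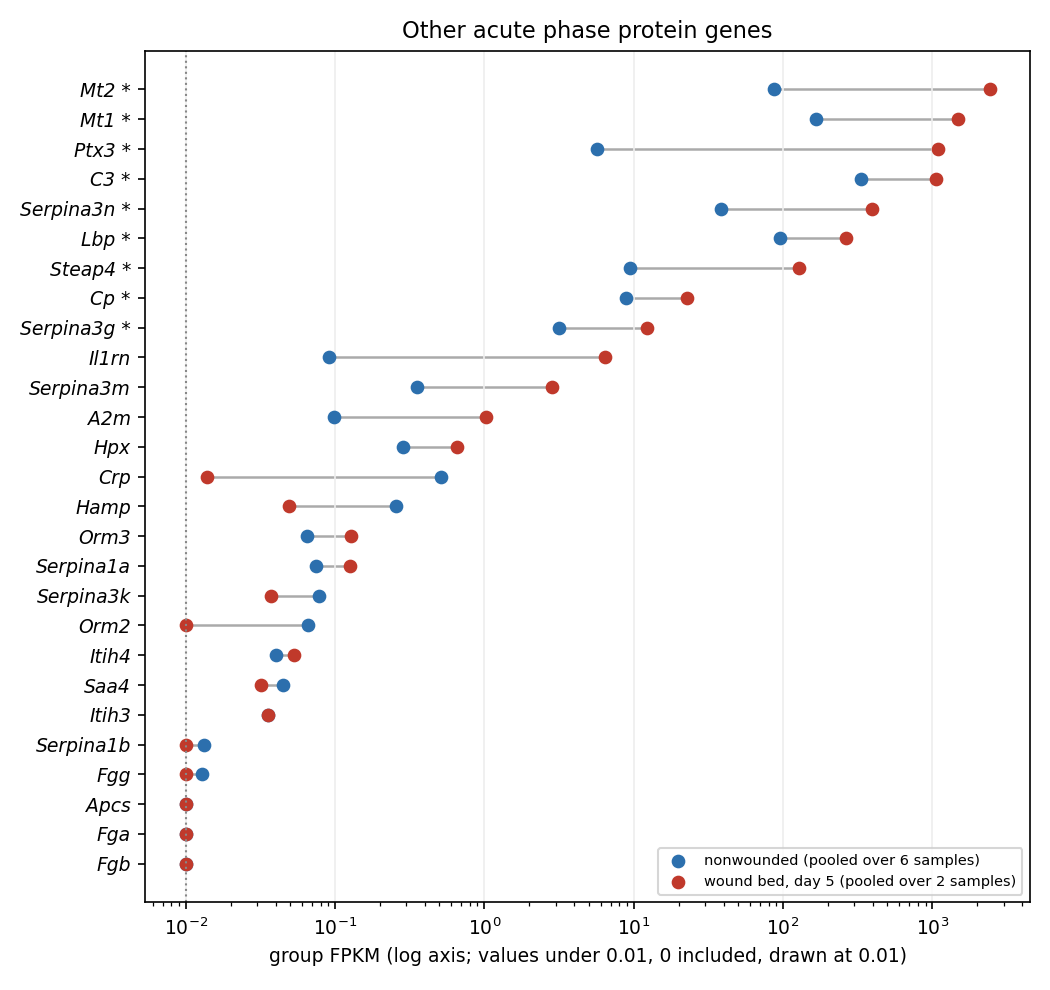
Group FPKM (horizontal log axis, values under 0.01 drawn at 0.01) of 27 of the 28 further acute phase genes (rows, ordered by the higher value) in nonwounded skin (blue) and the wound bed (red), with an asterisk where the gene was called. The 9 called genes drawn, from Mt2 (2416) to Serpina3g (12.3), fill the top rows with the red point to the right, and the 15 genes from Hpx down stay below 1 in both groups.

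The cytokines that induce acute phase genes, and their receptors, were examined next. Of 20 listed genes 19 were tested, 7 were called higher and 0 lower. Over all tested major isoforms the shares were 7.00% and 8.68%. The 19 tested genes had a median log2 fold change of 1.79 against -0.14 over all, and the list was chosen with results known. Some of the 19, such as Osm and Il1b, exceeded 1 in the wound bed only. Il6 stood at 736 in the wound bed against 1.94 in nonwounded skin. Its binding receptor Il6ra (5.09 and 5.52) and the shared signalling chain Il6st (96.2 and 90.5) were not called. Osm and its receptor Osmr, of the same cytokine family, rose by 3.90 and 3.67 on the log2 scale, to 6.24 and 30.7, and Lifr, the receptor of leukaemia inhibitory factor, rose by 1.35.

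Il1b, a cytokine gene typical of myeloid cells, stood at 104 and 0.643 without a call, with an adjusted Cuffdiff p of 0.0954, while the receptor gene Il1r1 rose by 1.83 to 47.1. The tumour necrosis factor receptor Tnfrsf1a rose by 0.89 to 99.6, and Il17ra, a receptor of interleukin 17, rose by 2.04 to 38.1. Il11ra1 stood at 164 and 34.4 for its major isoform, with a sum over isoforms of 0.86 on the log2 scale, and was not called. Nr3c1, which encodes the glucocorticoid receptor, stood at 13.4 and 19.7 without a call.

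Downstream, 13 of 17 tested transcription factor, kinase and feedback genes were called higher and 0 lower, where the shares over all tested major isoforms were 7.00% and 8.68%. The 17 tested genes had a median log2 fold change of 2.55 against -0.14 over all. This list, too, was chosen with results known, and Rel among the 17 exceeded 1 in the wound bed only. Of the listed C/EBP factor genes, Cebpb stood at 173 in the wound bed against 19.7 in nonwounded skin and was called. Cebpd (21.4 and 26.9) and Cebpa (9.29 and 7.95) were not called. Stat3 rose to 37.6 from 13.3, and Jak2, a kinase upstream of it, rose by 2.29 on the log2 scale. Socs3, a feedback inhibitor of interleukin 6 signalling, rose by 3.48 to 626.

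Genes of the NF-kappaB pathway were also among the calls. Nfkbiz, which encodes an NF-kappaB cofactor used at the Lcn2 gene, rose by 4.78 to 157. Nfkbia, the gene of the main inhibitor, rose by 2.91 to 378, and Atf3, a stress-responsive transcription factor gene, by 3.65 to 644. The subunit genes Rel (4.61), Nfkb2 (2.55), Nfkb1 (1.09) and Rela (0.78) were called, and the remaining subunit gene, Relb (14.7 and 4.37), was not. Also called were Bcl3 (2.91), a cofactor gene, and Zc3h12a (2.90), the gene of an RNase that degrades cytokine transcripts. The liver factor genes Hnf4a, listed at 0 in both groups, and Foxa2, at 0.0119 in nonwounded skin but 0 in the wound bed, were not tested.

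For the binding partners of the acute phase proteins the picture was mixed, with 2 of 18 tested symbols called higher and 4 lower, against 7.00% and 8.68% of all tested major isoforms, and a median log2 fold change of -0.03. The 4 lower symbols belong to chains of hemoglobin, the ligand of haptoglobin, but they are not 4 separate loci. Hbb-bs and Hbb-b1 have the same coordinates in the table, as do Hba-a1 and Hba-a2, so how reads were split between the symbols of a pair is uncertain. Hba-a2 stood at 0.0114 and 22.8 without a call. Hba-a1 stood at 62.6 in the wound bed against 1005 in nonwounded skin for its major isoform, and at 121 and 1994 summed over isoforms. Hbb-bs stood at 13.7 and 662, Hbb-b2 at 30.3 and 656, and Hbb-b1 at 41.0 and 378. The levels under these 4 symbols were lower in the wound bed, where that of Hp was higher. Which cells the hemoglobin transcripts came from was not tested. Hmox1, which encodes the heme-degrading enzyme heme oxygenase, stood at 505 and 20.0, and Cd163, the macrophage receptor of haptoglobin-hemoglobin complexes, at 1.26 and 3.51 without a call. Mmp9, whose protein forms a complex with lipocalin 2, was called at 4.56 and 0.874.

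Receptors of lipocalin 2 and serum amyloid A showed no call. The lipocalin receptor Slc22a17 stood at 9.50 and 12.5, and the larger receptor Lrp2 at 0.00307 and 0.0118 without a test. Among reported receptors of serum amyloid A, Fpr2 stood at 1.36 and 0.165, Tlr4 at 7.12 and 9.84 and Scarb1 at 4.51 and 7.15. Lrp1, a scavenger receptor gene that is abundant in these cells, stood at 99.8 and 55.6, with an adjusted Cuffdiff p of 0.0689.

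By a rule of likeness over the 2 group values, the distance between log2(FPKM + 1) levels, the genes nearest to Saa3 were Il6 and Ptx3, at distances of 2.27 and 2.47. Of the isoforms ranked above Saa3 in the wound bed, the lowest in nonwounded skin was Tpt1 at 2981. Nearest to Lcn2 were Slc16a3, a lactate transporter gene (37.0 and 1.22), Ccrn4l, the gene of nocturnin (39.1 and 1.01), and Maff, a small Maf factor gene (41.2 and 1.24), all within 0.23, of which Ccrn4l was called. Nearest to Hp were Wdr92 (159 and 27.2), Mif, a cytokine gene (119 and 27.9), and Pnrc1 (122 and 32.0), all of them called. With 2 values a gene, such likeness is weak and describes level only.

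Saa3, Lcn2 and Hp can be made by cells other than adipocyte precursors, and markers of such cells moved with the groups. In bulk RNA, more cells of a type and more RNA per cell cannot be told apart. Neutrophils carry lipocalin 2 and haptoglobin in their granules. Sums of markers, here and below, run over all isoforms of each gene, whereas levels of single genes are those of the major isoform. The 11 neutrophil markers in the table summed to 106 in the wound bed against 2.86 in nonwounded skin, and 0 of 6 tested markers were called. Over all tested major isoforms 7.00% were called higher and 8.68% lower. S100a9 stood at 56.6 and 0.310 and S100a8 at 40.0 and 0.925. The other tested markers also stood higher in the wound bed, at low levels. They were Retnlg (4.63 and 0.820), Csf3r (1.37 and 0.0440), Cxcr2 (0.872 and 0.323) and Mmp8 (0.750 and 0.0115). The granule genes Mpo (0.110 and 0.0188), Ltf (0.0102 and 0), Ngp (0.0436 and 0.0162) and Camp (0.486 and 0) were near 0. Elane was listed at 0 in both groups. Of these granule genes none was tested by the authors.

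Macrophage and monocyte markers summed to 855 and 256. Beside shares of 7.00% and 8.68% over all tested major isoforms, 8 of 11 tested markers were called higher and 0 lower. Among them Lyz2, a lysozyme gene, stood at 524 and 174, Ctss, a cathepsin gene, at 139 and 13.9, and Cd14, a co-receptor for lipopolysaccharide, at 61.8 and 5.42. The other 3 markers had no call, namely Ptprc, a pan-leukocyte gene (4.13 and 0.453), Csf1r, a growth factor receptor gene (25.9 and 17.6), and Aif1, which stood lower in the wound bed (7.80 and 12.2). The wound bed FPKM of Saa3 was 3295 beside 524 for the most abundant of these markers, but levels of different genes do not show which cells made them. The part of neutrophils and macrophages in the levels of Saa3, Lcn2 and Hp was not tested.

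Mature adipocyte markers, in contrast, summed to 11.4 in the wound bed against 140 in nonwounded skin. Of 8 tested, 2 were called lower and 0 higher, beside 8.68% and 7.00% of all tested major isoforms. Adipoq, the adiponectin gene, stood at 0.814 and 18.4, and Car3, a carbonic anhydrase gene, at 4.38 and 43.7. Orm1 had the same direction as these markers and Hp, Lcn2 and Saa3 the opposite one, and the part of adipocytes in the Orm1 level was not tested. Hepatocyte markers had a sum of 0.768 and 7.33. Of 8 listed only 1 was tested, Ttr, the transthyretin gene, which gave 0 and 6.23. It was called lower, beside 8.68% of all tested major isoforms. The 7 not tested stood below 1 in both groups, with albumin (Alb) at 0.132 and 0.223. Keratinocyte markers summed to 37.0 and 14.7, and 2 of 7 tested, Krt14 and Krt1, were called higher, beside 7.00% over all. Their part in the levels of the 6 genes was not tested.

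Markers often used for the precursors themselves summed to 2594 in the wound bed against 4046 in nonwounded skin. Most of this came from Ly6a and Cd34, which over all their isoforms stood at 1576 and 2691 and at 679 and 1104. By major isoform Ly6a stood at 1539 and 2149, Cd34 at 476 and 739 and Itgb1 at 197 and 117. Pdgfra stood at 81.2 and 78.8 and Pdgfrb at 31.3 and 20.7, and none of these genes was called. Cd24a, a surface glycoprotein gene, was the 1 of 6 that was called, at 9.38 and 24.9, where 8.68% of all tested major isoforms were called lower.

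**Figure D5:**
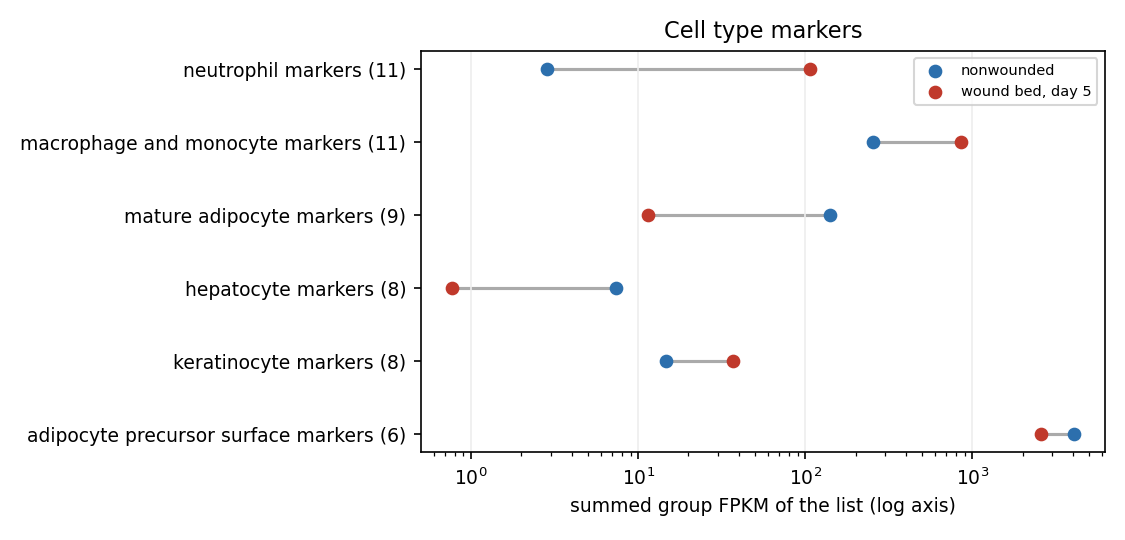
Summed group FPKM over all isoforms (horizontal log axis) of 6 lists of cell type markers (rows, with the number of genes in the table) in nonwounded skin (blue) and the wound bed (red). Neutrophil markers run from 2.86 to 106 and mature adipocyte markers from 140 down to 11.4, while hepatocyte markers do not go above 7.33.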

How the data were processed

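Libraries were prepared from mRNA with a TruSeq protocol, per the labels' protocols. Reads were aligned with TopHat2 2.0.2 and compared with Cuffdiff 2.0.2, per the submitters' processing notes, which name mm9. The single table holds, as the authors deposited it, 1 FPKM per isoform and group and an unadjusted p-value. Columns of single samples left unused numbered 0. Symbols that a spreadsheet had turned into dates were restored for 56 isoforms, none of them of the 6 genes. FPKM are not counts, so no count test was run.

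The p-values of 17775 tested isoforms were adjusted by Benjamini-Hochberg, which gave the deposited yes or no for all 34535 isoforms. The adjustment was tested on simulated data. Log2 fold changes are wound bed over nonwounded without a pseudocount. A gene is represented by its tested isoform with the highest summed FPKM. The summed FPKM of marker lists instead run over all isoforms of each gene.

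The members and the lists (4 of pathways, 6 of cell type markers) were chosen with earlier results of these data known. Named from the lists were called genes, genes above an FPKM of 100 and markers near 0, with the 3 genes nearest to each called member. Some genes that these rules name, which the counts include, are not reported here. Other list genes named, genes within 100 kb and the promoter motifs were chosen after values were seen. Alternatives were other thresholds, FPKM minimums of 1 and 5, leaving out values of 0, centring, pseudocounts of 1 and 0.1, and sums over isoforms. Transcripts were aligned with Biopython 1.88, and computations used Python 3.11.15, numpy 2.4.6 and pandas 2.3.3.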

Additional observations from a re-analysis of the deposited data

How the results depend on the processing

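No paired analysis was possible because the table gives 1 pooled value per group, and for the same reason no replicate could be left out. Depth is unknown, so no interval was given. At an adjusted p under 0.01 the isoforms called fell to 642 higher and 823 lower, and 1 of the 6 genes, Hp, was called higher. At an adjusted p under 0.1, 1 of the 6, Orm1, was called lower. The list of binding partners and receptors had 1 gene called higher and 3 lower at an adjusted p under 0.01, and 4 higher and 5 lower under 0.1. Over all tested isoforms 3.61% were called higher and 4.63% lower at 0.01, and 7.52% and 10.2% at 0.1. Under a required log2 difference of 1, FPKM minimums of 1 or 5, or without values of 0, Saa3, Lcn2 and Hp kept their calls. An FPKM minimum of 5 left out Saa2 and Orm1.

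Every direction of the 6 genes held under the alternatives run, which could not have changed it, so nothing is read from this. The same pseudocount in both groups cannot change a sign, and the centring shift was small beside each fold change. Centring on the median log2 of isoforms that reach an FPKM of 1 in each group, which was -0.11, gave log2 fold changes of 6.89 for Saa1, 4.29 for Saa2, 12.09 for Saa3, 5.05 for Lcn2, 2.43 for Hp and -3.09 for Orm1. A pseudocount of 1 gave 3.0, 1.08, 10.83, 4.07, 2.28 and -1.60 in the same order. A pseudocount of 0.1 gave 5.50, 3.01, 11.82, 4.82 and -2.86 for Saa1, Saa2, Saa3, Lcn2 and Orm1. The sum over isoforms changes none of the 6, since each has 1 isoform.

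The median of the further acute phase genes was 3.46 when centred, 2.77 with a pseudocount of 1 and 3.15 with 0.1. That of the cytokines and receptors was 1.69 with sums over isoforms, 1.90 when centred, 1.04 with a pseudocount of 1 and 1.61 with 0.1. That of the transcription factors and feedback genes was 1.97 with sums, 2.66 when centred, 2.26 with a pseudocount of 1 and 2.52 with 0.1. The median of the binding partners changed sign, to 0.097 with sums and 0.081 when centred, and was -0.023 with a pseudocount of 1. Its value lay near 0 in each case, and the cause was not tested.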
